A study of Homo sapiens with 12 samples.

Results

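AGO2 was mapped on RNA by eCLIP, which crosslinks protein to RNA with ultraviolet light, immunoprecipitates the protein and sequences the RNA fragments it holds. Described here are 1163 of the 2921 regions listed for the AGO2 mutant 5xA (39.8%, exact 95% interval 38.0 to 41.6), those that lay in genes with no region in the wild-type list. A region was chosen when it overlapped no WT region by 1 base or more on the same strand and when its RefSeq gene held no WT region. Each region was given to 1 gene, a protein-coding one first, then a lncRNA, then any other, and the shortest where several remained. The 1163 regions fell in 934 of the 1583 genes with a 5xA region (59.0%, 56.5 to 61.4), and these 934 are called WT-free genes below. The members were thus chosen by the presence of a 5xA region and the absence of WT regions, so their number is a description of the lists and not a test. In all, 1977 of the 2921 regions (67.7%) had no overlap in the WT list. Beside the 1163, these were 737 regions in 351 genes that held a WT region elsewhere and 77 regions outside annotated genes, while 944 regions did overlap one.

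The cells were HCT116, a human colorectal carcinoma line, in 3 genotypes named AGO2_KO, FH-AGO2_WT and FH-AGO2_5xA. FH-AGO2 is a tagged AGO2 that an anti-FLAG antibody precipitates, and AGO2_KO cells served as the control. Each genotype had 2 input and 2 immunoprecipitated (IP) samples, 12 in all, from cells grown for 48 h and crosslinked at 400 mJ/cm2. The authors merged both IP replicates of a genotype into 1 list, so no replicate error exists for any value here and the depth behind each list is unknown. The labels do not say whether a line was 1 clone, how much tagged protein it made, or whether the tagged lines lack their own AGO2.

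AGO2 holds a miRNA and pairs its seed, the bases near the 5′ end, with sites that lie mostly in the 3′ untranslated parts of mRNAs. A cluster of serines and a threonine near the end of the protein is phosphorylated once AGO2 has met a target and is dephosphorylated again by the ANKRD52–PPP6C phosphatase, and 5xA has alanines in place of these residues. The design compared the RNA held by the mutant with that held by the wild-type protein.

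The regions at miRNA genes can be shown letter by letter, because here the RNA in the list can be the miRNA or its precursor and not a target. They touched 10 miRNA genes, and 8 of the regions covered at least 15 bases of a mature arm that the RefSeq sequence table holds. The mature sequences of these arms are given 5′ to 3′ from RefSeq (GRCh38.p14, the build whose chromosomes carry the coordinates of hg38), with the seed, bases 2 to 8, in capitals.

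hsa-miR-182-5p: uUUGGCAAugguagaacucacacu
hsa-miR-96-5p: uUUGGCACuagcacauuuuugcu
hsa-miR-183-5p: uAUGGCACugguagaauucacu
hsa-miR-191-5p: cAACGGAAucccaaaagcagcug
hsa-let-7g-5p: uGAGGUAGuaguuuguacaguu
hsa-miR-4658: gUGAGUGUggauccuggaggaau
hsa-miR-6765-5p: gUGAGGCGgggccaggagggugugu
hsa-miR-10527-5p: aAAGCAAAuguugggugaacggc

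MIR182, MIR96 and MIR183 lie together on the minus strand of chromosome 7, and each of them held 1 region, which covered both arms. These regions lay within 4584 bases. The regions lay at 129770405 to 129770470 (MIR182), 129774696 to 129774761 (MIR96) and 129774924 to 129774988 (MIR183), and were 66, 66 and 65 bases wide. The seeds of this cluster are close to each other. With positions counted from 1 at the 5′ end and the base of miR-96-5p given second, miR-182-5p differed from miR-96-5p in the seed by A8C alone, and miR-183-5p by A2U alone. The seed of let-7g-5p is that of the whole let-7 family, which represses growth-promoting mRNAs. Of 8 miRNA genes with this seed and a 5xA region, 6 also held a WT region. MIRLET7G and MIRLET7F1 were in the 5xA list alone, and only MIRLET7G is among the 1163, since the host gene of MIRLET7F1 held a WT region.

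In the 4 precursors shown here, with the covered bases in capitals, the region started with the 5p arm and ran across the loop.

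MIR182 hairpin: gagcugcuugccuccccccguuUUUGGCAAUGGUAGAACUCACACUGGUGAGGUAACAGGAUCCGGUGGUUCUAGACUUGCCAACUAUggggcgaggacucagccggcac
MIR96 hairpin: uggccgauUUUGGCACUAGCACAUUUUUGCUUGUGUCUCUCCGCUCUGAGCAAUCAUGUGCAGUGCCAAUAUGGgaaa
MIR191 hairpin: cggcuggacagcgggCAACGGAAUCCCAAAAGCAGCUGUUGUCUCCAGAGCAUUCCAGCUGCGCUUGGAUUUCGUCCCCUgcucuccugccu
MIRLET7G hairpin: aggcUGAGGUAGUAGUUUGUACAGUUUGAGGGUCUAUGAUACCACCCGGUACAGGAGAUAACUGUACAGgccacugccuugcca

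In 7 of the 8 regions the first base was exactly the first base of the mature 5′ arm or of the only arm listed, and in MIR10527 it lay 2 bases further in. The same held for 15 of 23 other 5xA regions on a mature arm and for 15 of 21 WT regions, so a start at this base was common in all 3 sets, and the difference was not tested. Each of the 7 regions was 65 or 66 bases wide. The MIR182, MIR96, MIR183 and MIR191 regions ended at or beyond the last base of the 3p arm, whereas the MIRLET7G region stopped 8 bases into it. The MIR191 region at 49020630 to 49020694 of chromosome 3 was given to NDUFAF3, a protein-coding gene known to lie on the other strand, and the MIRLET7G region to its host WDR82. MIR6765 lies in JAG2, which encodes a Notch ligand, and MIR4658 in TRAPPC14. Only 29 of the 65 bases of the MIR4658 region lay in the miRNA gene, and the rest lay outside the annotated hairpin. The MIR10527 region met 2 annotated genes, and the nearest WT region, 360 bases away, lay in PABPC1P4. For MIR10399 the region met the gene by 1 base, and for MIR7705 a region of 402 bases in PABPC1 covered all 57 bases of the miRNA gene, so neither points to the miRNA in particular.

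Other small RNA genes made up a short list. The regions met 13 tRNA genes in 9 regions, 3 snoRNA genes, the small Cajal body RNA SCARNA9, the Y RNA RNY3, SNAR-A13, and LOC124900915, annotated as an snRNA gene. RNY3, a part of the Ro ribonucleoprotein, was covered over 100 of its 102 bases. SNORD19C was covered over all 67 of its bases in GNL3, SNORD86 over 81 of 86 in NOP56, and SNORD1A over 65 of 74 in the host lncRNA SNHG16. SNAR-A13 belongs to a family of near-identical copies, as tRNA genes do, so which copy gave the reads is uncertain.

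The 5 widest regions were unlike the rest of the set. The widest, 6057 bases, ran on the plus strand from 8119763 to 8125819 of chromosome 17, over 4 tRNA genes and into HES7, a Notch-regulated repressor gene on the minus strand, up to 815 bases from that gene's high-coordinate end. A region of 1440 bases on chromosome 1 ran from TRE-CTC1-1 to TRG-TCC2-1, again from tRNA gene to tRNA gene. The others lay in CSTB, which encodes cystatin B (1605 bases), in ROMO1, a mitochondrial protein gene (1134 bases), and in SLU7, a splicing factor gene (1050 bases). The CSTB region began before the annotated gene start.

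Most WT-free genes rested on a single region. Of the 934, 757 held 1 region, 135 held 2, 33 held 3, 8 held 4 and 1 held 5. Among genes with 1 region in the 5xA list 73.1% (757 of 1035) were WT-free, among those with 2 regions 47.5% (135 of 284), among those with 3 regions 28.7% (33 of 115), and among those with 4 or more 6.04% (9 of 149). The share thus fell with each further region, and genes with many 5xA regions were nearly always in the WT list too.

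**Figure D1:**
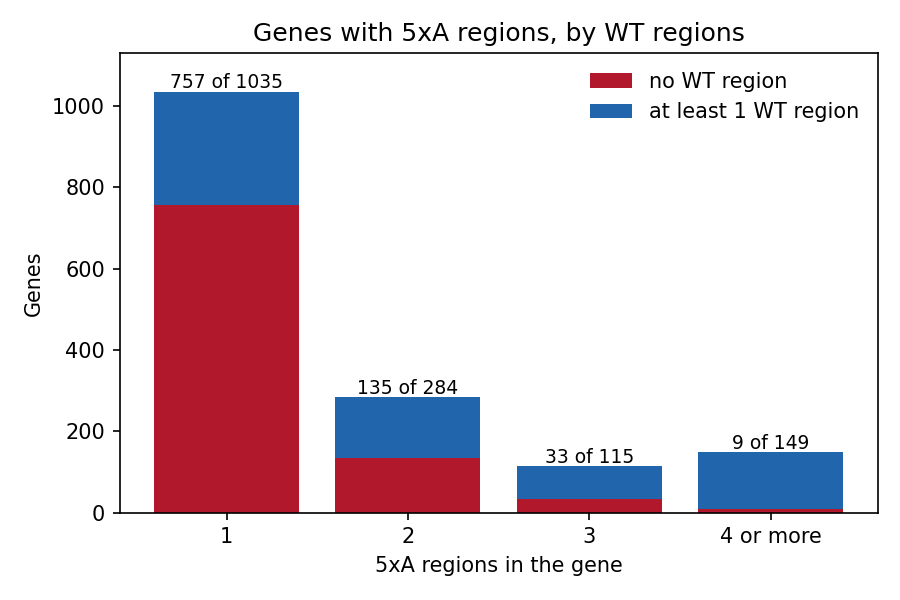
Number of genes (y axis) with 1, 2, 3 or at least 4 regions in the 5xA list (x axis), split by whether the gene held a WT region. The red part, genes without a WT region, is 757 of 1035 genes in the first bar and 9 of 149 in the last.

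ZNF385A, which encodes a zinc finger protein that binds p53, led the WT-free genes with 5 regions. They lay on the minus strand between 54369277 and 54370232 of chromosome 12, 141 to 1033 bases from the downstream gene end, and were 64 to 132 bases wide. The gene also lies within the span of GPR84-AS1, in which a WT region, assigned to ITGA5, lay 25879 bases away. When a gene counted as WT-bound if any gene overlapping the region held a WT region, ZNF385A was no longer WT-free.

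The 8 genes with 4 regions were MEX3D, PIAS4, AEN, ZC3H4, LINC02604, CUX1, AKAP12 and CSNK1E. MEX3D encodes an RNA-binding protein of the KH domain class, and 3 of its regions lay 139 to 1031 bases from the downstream end while 1 lay 12923 bases away, near the gene start. PIAS4, a SUMO ligase gene, held its 4 regions within 922 bases, 474 to 1302 bases from the end, with widths of 94, 137, 265 and 76 bases. In AEN, a nuclease gene that p53 activates, the regions lay 492, 635, 1642 and 1848 bases from the end. In ZC3H4, a zinc finger protein gene that limits noncoding transcription, they lay 29 to 1891 bases from it. AKAP12 encodes a scaffold of protein kinase A, and its regions lay 94, 264, 545 and 1898 bases from the end. All of these sat on the strand of their gene.

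CSNK1E encodes casein kinase 1 epsilon, a relative of the kinase that phosphorylates the AGO2 cluster. Its 4 regions lay on chromosome 22 between 38291256 and 38294185, 565 to 3438 bases from the downstream end, and were 57 to 111 bases wide. They also lie in the readthrough gene TPTEP2-CSNK1E, and with the longest span in place of the shortest they were counted there. The nearest WT region, in TMEM184B, was 70144 bases away.

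CUX1, a homeodomain factor gene of 467952 bases, stood apart in position. Its 4 regions lay 26315 to 34694 bases from the downstream end, 3 of them between 102249046 and 102249552 of chromosome 7. ZNF680 and PEDS1 likewise had none near the end, with 3 regions each within 710 and 424 bases, at 21995 to 22617 and 6311 to 6661 bases from the end. IRS1, which encodes the adaptor of the insulin receptor, held 1 region 4027 bases from its end and 2 near its start, 63895 and 64205 bases from the end. RAP2B, a small GTPase gene of 8402 bases, held its 3 regions 6241 to 7203 bases from the end. No exon annotation was used, so whether these places are exons, or ends of shorter transcripts, was not tested.

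Regions of the other leading genes mostly kept to the last 5 kb. NTSR1, the neurotensin receptor gene, held 3 regions at 391, 1692 and 1850 bases from the end, the widest of 295 bases. MYH9, the gene of a nonmuscle myosin heavy chain, held 3 at 123, 616 and 1090 bases. SETD1B, which encodes a histone H3 lysine methyltransferase, held 3 within 573 bases. ARF1, a GTPase gene of Golgi transport, held 3 at 289, 468 and 1043 bases, IPO7, an importin gene, 3 at 149, 947 and 2324 bases, and MLEC, a lectin gene of the endoplasmic reticulum, 3 at 67, 2528 and 4189 bases. YWHAZ (a 14-3-3 protein), PDE4B (a cAMP phosphodiesterase), LASP1 (an actin-binding protein), SLC52A2 (a riboflavin transporter), C15orf39 and CAPN15 (a calpain) also held 3 regions each within 5 kb of the end. The SLC52A2 gene, of 2721 bases, is itself shorter than 5 kb. PLXNB2, a semaphorin receptor gene, and POM121C, a nuclear pore gene, held 2 each there and 1 further region 15532 and 25819 bases away. With the longest span in place of the shortest, CAPN15, PEDS1 and LRFN4 each held 0 regions. Of the 30 leading genes 1 kept its number of regions in all 12 settings tried. In 27 of them the number changed when only regions of at least 100 bases were kept, which drops narrow regions by construction. No other setting changed it in more than 10 genes.

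**Figure D2:**
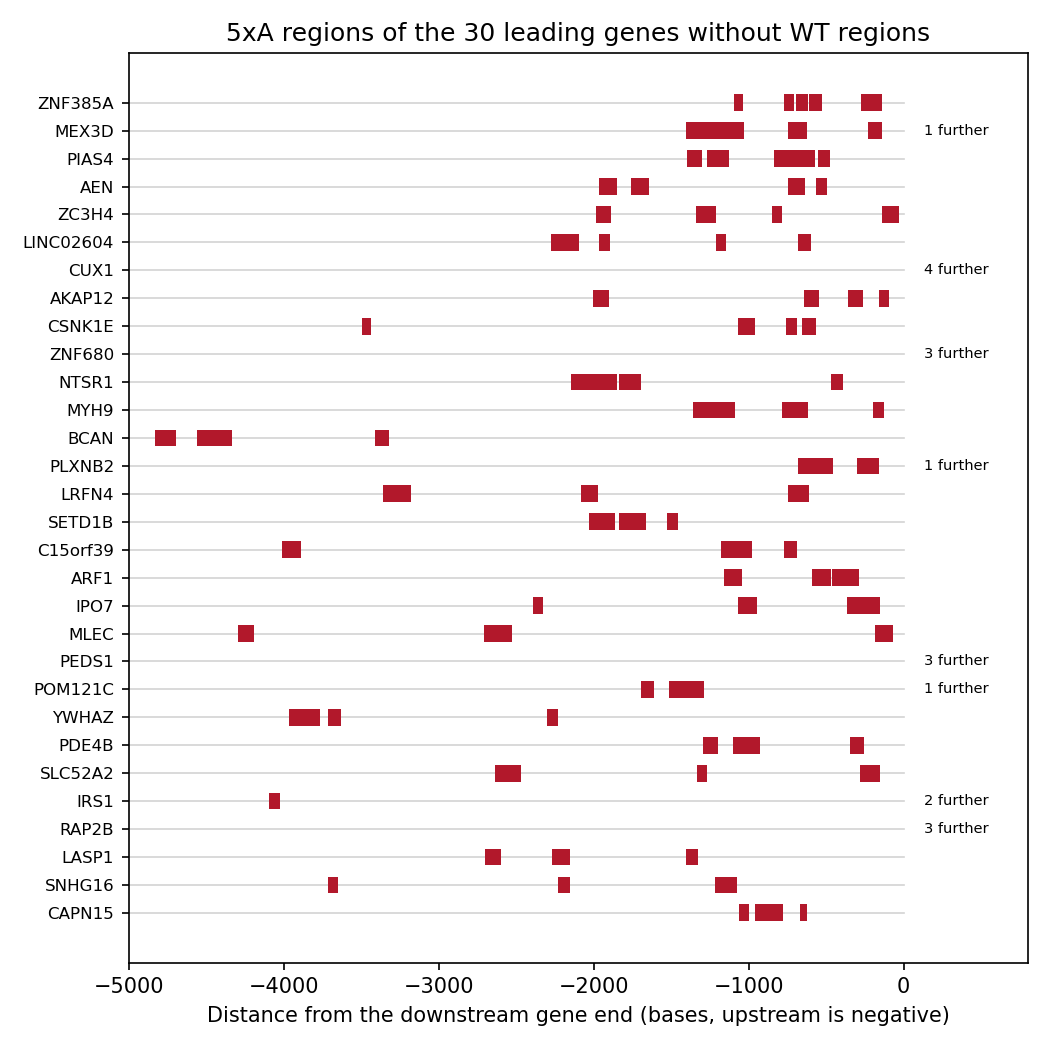
Each row is 1 of the 30 genes with most regions, and each red bar is a region at its distance from the downstream gene end (x axis, in bases, drawn to scale over the last 5 kb). Regions beyond 5 kb are counted at the right, as for CUX1 (4), ZNF680 (3), PEDS1 (3) and RAP2B (3).

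Where a WT-free gene held several regions, they were close together. The 177 genes with more than 1 region had 227 gaps between neighbouring regions on a strand, with a median of 454 bases (quartiles 140 and 1379). Of these gaps 120 (52.9%) were at most 500 bases, 47 at most 100 bases, and 25 were over 5 kb. In 27 of the 42 genes with 3 or more regions, all lay within 5 kb of the downstream end. Among the 27 are LINC02604, LRFN4 and SLC52A2 (2178, 3412 and 2721 bases long), which meet this by their length alone. BCAN is also among them, with regions on the opposite strand, so that the downstream end counted there is the gene's start side. The tightest groups of 3 were in PEDS1 (424 bases from first to last base), CAPN15 (441), SETD1B (573), ZFP91 (587) and ZNF680 (710). In PEDS1 neighbours were 1 and 49 bases apart, so joining regions within 50 bases left 1 region there.

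The nearest WT region on the same strand was a median of 1100 kb away (quartiles 309 and 3940), while for 5xA-only regions in genes with WT regions it was 0.38 kb away. Within 10 kb lay 10 regions (0.86%), against 686 of 737 (93.1%) in the genes with WT regions, a contrast that the gene rule itself produces. The 5 nearest regions were those in MIR10527 (360 bases), CAPN12 (503 bases, with the WT region in ACTN4) and LINC02604 (445, 751 and 1508 bases). The CAPN12 region overlapped 2 annotated genes and was given to CAPN12, whose strand was unknown, by the rule on classes and spans. Just on the other side of the rule, small overlaps with a WT region were 3 bases in RRBP1, 5 in DOHH, 6 in ZFTA and 8 in TGIF1.

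Compared with the other 5xA regions, these were narrow. Their median width was 87 bases (quartiles 69 and 117, range 42 to 6057), against 104 bases (80 and 142) for 5xA-only regions in genes with WT regions and 147 bases (103 and 225) for 5xA regions that overlapped a WT region. Regions of at least 100 bases made up 37.8% (440 of 1163) of them and 53.7% (396 of 737) of the 5xA-only regions in genes with WT regions, with an odds ratio of 0.524 (0.433 to 0.635, 95% bounds, adjusted p = 3.32e-11 over 6 two-sided Fisher's exact tests). Against the overlapping regions, 77.3% of which (698 of 903) were that wide, the odds ratio was 0.179 (0.146 to 0.218, exact test, adjusted p = 3.22e-73), a comparison that the overlap rule tilts, since a wide region meets a WT region more easily. In the first comparison both sets lack an overlap, but regions in genes with WT regions lie nearer to WT regions, so the rule removes wide regions from that set more easily. It held with only the widest region of each gene (odds ratio 0.348), at 150 bases (0.542) and for regions within 5 kb of the gene end (0.534). Keeping the widest region can lower the odds ratio, since it favours the set with more regions per gene. That set is the genes with WT regions (737 regions in 351 genes, against 1163 in 934). These tests take regions as independent and compare sets within 1 merged list, not genotypes over replicates.

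The narrow side had a sharp edge. The commonest width was 65 bases (62 regions), and 16.6% (193 regions, 14.5 to 18.9) were 62 to 67 bases wide, against 7.46% (5.67 to 9.60) of the 5xA-only regions in genes with WT regions and 2.88% (1.89 to 4.19) of the overlapping ones. At the other end, 25 regions (2.15%) reached 250 bases, against 4.34% and 20.4%. Read counts were not used here, so whether width follows the number of reads was not tested.

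**Figure D3:**
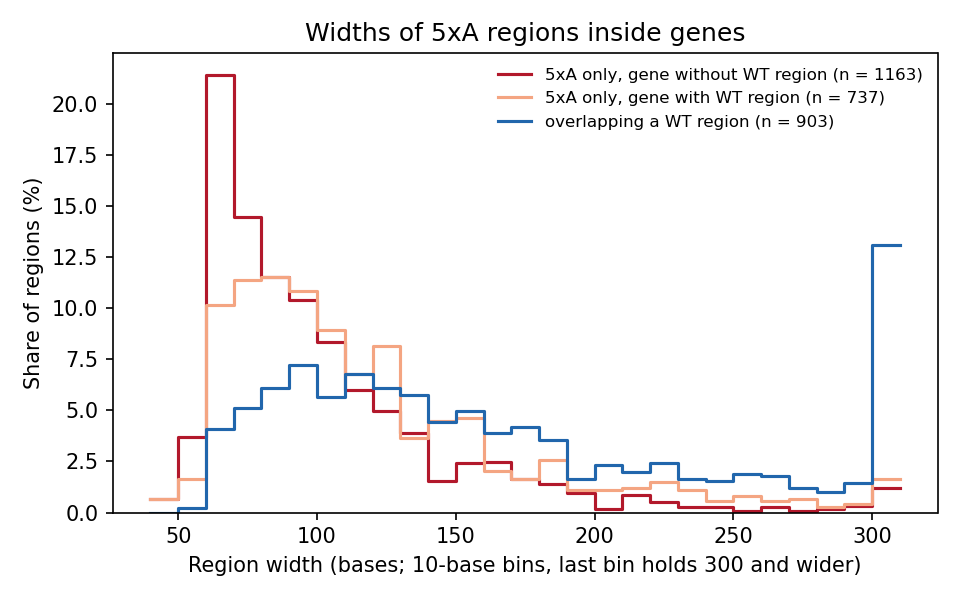
Share of regions (y axis, %) by width in bases (x axis, bins of 10 bases, the last holding all of 300 bases and more) for the 3 sets of 5xA regions inside genes. The red line, regions in genes without WT regions, peaks between 60 and 70 bases, and the blue line, overlapping regions, has the most in the last bin.

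Most of the regions lay toward the downstream gene end, the side of the 3′ untranslated part. Along the strand of the region, and counting protein-coding genes over 10 kb, the downstream edge of 76.3% (668 of 876, 73.3 to 79.0) was at most 5 kb from the gene's downstream end, where an even spread would put 15.7%. Their median distance to it was 1676.5 bases (quartiles 547.75 and 4712.25). The share was 77.8% (451 of 580) for 5xA-only regions in genes with WT regions (odds ratio 0.919, 0.709 to 1.19, Fisher's exact test, adjusted p = 0.526). It was 80.8% (543 of 672) for overlapping regions (odds ratio 0.763, 0.591 to 0.984, exact test, p = 0.0346, adjusted p = 0.0692), so neither difference passed in this setting. The direction against the first set depended on the setting, with an odds ratio of 1.31 within 2 kb (exact test, adjusted p = 0.0237). It was 0.608 with only the region of each gene nearest its end (exact test, adjusted p = 0.0198). Against overlapping regions the lower share passed in all protein-coding genes (0.717, exact test, adjusted p = 0.0102). It also passed with only the nearest region of each gene (0.69, exact test, adjusted p = 0.037). Keeping the nearest region favours sets with more regions per gene. These were 580 regions in 269 genes and 672 in 431 for the other sets, against 876 in 688. The setting with all protein-coding genes includes genes shorter than 5 kb, whose regions meet the window by gene length alone.

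Few regions lay at the other end. The upstream 5 kb of these genes held 59 regions (6.74%, 5.17 to 8.60), where an even spread would again put 15.7%. It held 3.97% (2.53 to 5.89) of the 5xA-only regions in genes with WT regions and 3.12% (1.94 to 4.74) of the overlapping ones. An even spread would put 16.4% and 17.4% there. The difference between the sets was not tested. Annotated start windows of all genes (250 bases before to 50 after the start) were compared with the regions on either strand. Of the regions 27 met a window, 18 of them that of their own gene. The 27 included regions in ODC1, which encodes ornithine decarboxylase, TOB1, an antiproliferative gene whose product recruits a deadenylase, and KLF2, a Krüppel-like factor gene. Some regions lay on the strand opposite the window they met, such as HES7 at its own window and GNG5 at that of SPATA1.

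**Figure D4:**
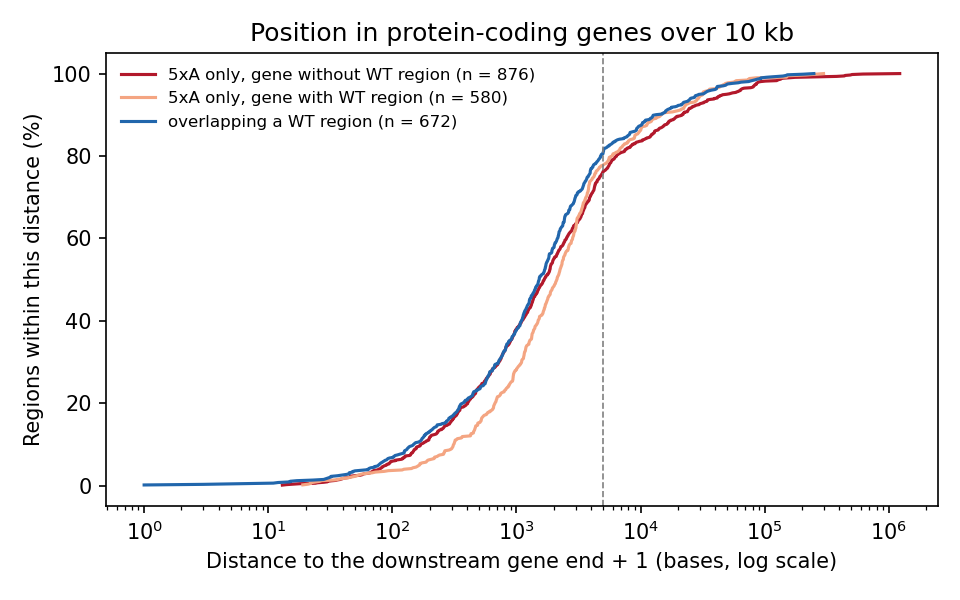
Cumulative share of regions (y axis, %) by distance to the downstream gene end plus 1 base (x axis, log scale), for protein-coding genes over 10 kb. At the dashed line at 5 kb the 3 sets reach 76.3% (red, genes without WT regions), 77.8% (orange) and 80.8% (blue).

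The start of LINC02604 is printed because its regions were among the nearest to a WT region and the first of them ran over the annotated start. This lncRNA gene spans 66904120 to 66906297 of chromosome 7. Its regions were 176, 74, 64 and 83 bases wide, the first from 66904026 on, and the WT region 445 bases upstream of it lay in no annotated gene. With gene spans extended by 1 kb that WT region belonged to LINC02604, and the gene was no longer WT-free. A second such place is LRFN4, a gene of a synaptic adhesion protein, with 3 regions on its strand. A further region of 91 bases ended 123 bases before its annotated start and was given to PC, the pyruvate carboxylase gene on the other strand. With spans extended by 1 kb LRFN4 held 4 regions. Both stretches are from RefSeq (GRCh38.p14), plus strand, with the bases after the annotated start in capitals; the LRFN4 stretch lies wholly before it, and the LINC02604 stretch stops where the start window ends.

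LINC02604 start, chr7:66904026-66904169: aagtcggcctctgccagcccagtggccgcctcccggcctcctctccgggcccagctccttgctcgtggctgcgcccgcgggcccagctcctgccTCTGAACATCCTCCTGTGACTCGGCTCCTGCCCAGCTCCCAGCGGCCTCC
LRFN4 upstream region, chr11:66856851-66856941: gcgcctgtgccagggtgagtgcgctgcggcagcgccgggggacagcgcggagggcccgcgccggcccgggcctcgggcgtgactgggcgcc

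Protein-coding genes took 1104 of the regions (94.9%, 93.5 to 96.1) and 881 of the WT-free genes, which is 4.4% of all 20037 annotated protein-coding genes and 59.6% of the 1478 with a 5xA region. The share of regions in protein-coding genes was 95.8% in the genes with WT regions (odds ratio 0.822, 0.509 to 1.3, Fisher's exact test, adjusted p = 0.526) and 93.6% among overlapping regions (1.28, 0.868 to 1.9, exact test, adjusted p = 0.318), so no difference was detectable. The rule itself puts protein-coding genes first, which limits what these tests can show. For regions that overlap a single gene the odds ratios were 0.893 and 1.18 (exact tests, adjusted p = 0.719 and 0.526). lncRNA genes held 24 regions in 18 genes. After LINC02604 came SNHG16, a snoRNA host with 3 regions, of which 1 is the SNORD1A region above, then FAM157C with 2. SNHG1, another snoRNA host, held 1 region of 197 bases, 157 bases from its end.

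Genes annotated as pseudogenes held 23 regions, and for 22 of them a parent gene was found in the annotation. The exception was ORAI1, which was counted here because of the pseudogene class it has in the annotation used. Among the 22, the parent held a 5xA region for 13 and a WT region for 8, and for 8 it held neither. BAK1P1 is an example, with 2 regions of 5xA in BAK1 and none of WT, as is RPL13AP5, with 1 region of 5xA and none of WT in RPL13A. Parent and copy are alike in sequence, so the assignment between them is uncertain.

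Strand was known for the gene of 938 regions, and 38 of these (4.05%) lay on the opposite strand of the gene they were given to. The share was 1.19% for 5xA-only regions in genes with WT regions and 2.52% for overlapping regions. Of the 38, 17 met another gene known to lie on their strand, such as PLK3 at DYNLT4, PPIB at SNX22, HSPG2 at LDLRAD2, CARM1 at YIPF2 and AP2A1 at FUZ. In 1 of the 38, the region given to LOC124904106, this other gene, KDM6B, held a WT region. BCAN, which encodes the brain proteoglycan brevican, held all 3 of its regions on the opposite strand, 2 of them in BCAN-AS2, so its place among the leading genes was lost when opposite genes were left out. Leaving them out kept 1153 regions in 926 genes.

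The study's line and pathways were described with 24 curated gene lists and 20 name families, chosen with earlier results of these data known and given as counts with no test. For each, the number of WT-free genes is set beside the genes of the list with a 5xA region, and can be read against 59.0% over all genes. Of 34 lists with at least 5 such genes, 12 lay above that value. In the silencing machinery 4 of 12 were WT-free: PABPC1, the poly(A)-binding protein gene, with 2 regions, and LSM14A, LSM14B and CNOT4 with 1 each. In the list around AGO2 phosphorylation 1 of 2 was, CSNK1E.

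Among listed miRNA targets with a 5xA region, most also held a WT region. Many listed targets held no region in either list. These were 16 of 34 for let-7, 15 of 35 for the miR-17 family and 17 of 23 for miR-21. For the miR-200 family they were 16 of 26, and for miR-182, miR-96 and miR-183 17 of 26. Of listed let-7 targets with a 5xA region 4 of 18 were WT-free (ARID3B, E2F2, IGF1R and IGF2BP2), of miR-21 targets 1 of 5 (STAT3), of miR-17 family targets 8 of 19, including APP and SQSTM1, and of miR-200 family targets 4 of 10 (MSN, QKI, ZEB1 and SEC23A). For miR-182, miR-96 and miR-183, whose genes held regions with 5xA alone, 2 of 9 listed targets were WT-free, AKAP12 and IRS1. Whether these regions hold sites for the miRNAs was not tested.

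Pathway lists were counted in the same way. In the apoptosis list 1 of 8 was WT-free (BAK1, a pore-forming killer of the BCL2 family, with 2 regions), in the TGF-beta and BMP list 2 of 9 (ID3 and ACVR1B), in the p53 list 3 of 11 (AEN, TIGAR and PLK2) and in the cell cycle list 5 of 15. The last were SKP2, a ubiquitin ligase subunit gene with 2 regions, the E2F genes E2F1, E2F2 and E2F4, and MYBL2. In the Wnt list 4 of 9 were WT-free (DVL1, DVL3, FZD6 and GSK3B), and among chromatin modifiers 11 of 29. DNMT3B, a DNA methyltransferase gene, held 3 regions 404 to 1251 bases from its end, and NSD2, a histone methyltransferase gene, held 2.

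Other lists and families lay on either side of 59.0%. Of RAS, ERK and PI3K genes 10 of 19 were WT-free, among them IRS1 and PIK3R2 with 3 regions each and the adaptor GRB2 with 2. In the Hippo list 4 of 5 were (TAOK2 and MOB1A with 2 regions, NF2 and LATS1 with 1), and in the Notch list 5 of 6. The Notch count rests in part on small RNAs, since the HES7 region spans tRNA genes and the JAG2 region is MIR6765, which leaves RBPJ, MAML1 and NRARP. All 5 RAB genes with a 5xA region were WT-free (RAB5B and RAB1B with 2 regions, RAB22A, RAB35 and RAB11A with 1), as were 4 of 4 ubiquitin-specific protease genes and 11 of 14 TMEM genes. Among larger families 19 of 34 solute carrier genes and 17 of 27 ZNF genes were. Lists with few 5xA-bound genes gave 2 of 3 tripartite motif genes, 1 of 4 PPP phosphatase subunit genes, 1 of 2 ZC3H genes and 2 of 4 genes of nuclear receptor coregulators and SUMO. The tripartite motif count rests in part on TRIM55, where 64 of the 68 bases of the region lay in the tRNA gene TRY-GTA5-2.

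Genes of basic cell functions lay on both sides. Of the housekeeping and glycolysis list 9 of 14 were WT-free, such as YWHAZ, ACTB, TUBA1B, TUBA1C and TPI1, and of replication-dependent histone genes 8 of 11, such as H3C15, H3C4, H2AC6 and H2AC17, each with 1 region. H3C14, of the same family, held a region that overlapped a WT region. How reads were placed between genes of this family was not tested. Of ribosomal protein genes 5 of 7 were, and the regions in RPL13A, RPL7A, RPL30 and RPL18 lay 8, 10, 32 and 44 bases from the gene end. Of translation initiation factor genes 2 of 8 were WT-free, and of hnRNP and SR protein genes 2 of 5. RNA levels and the input libraries were not analysed here, so whether the abundance of an mRNA moves with its place in the list was not tested. Cell type markers with a 5xA region were few. Of 16 blood cell and 16 neuronal markers 0 held a 5xA region. Of 15 fibroblast markers 3 held a region, and 2 of these were WT-free (COL6A1 and COL6A2). Of 20 colorectal epithelial markers 3 held a region, and 1 of these was WT-free (VIL1, the villin gene, whose region also overlaps USP37).

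**Figure D5:**
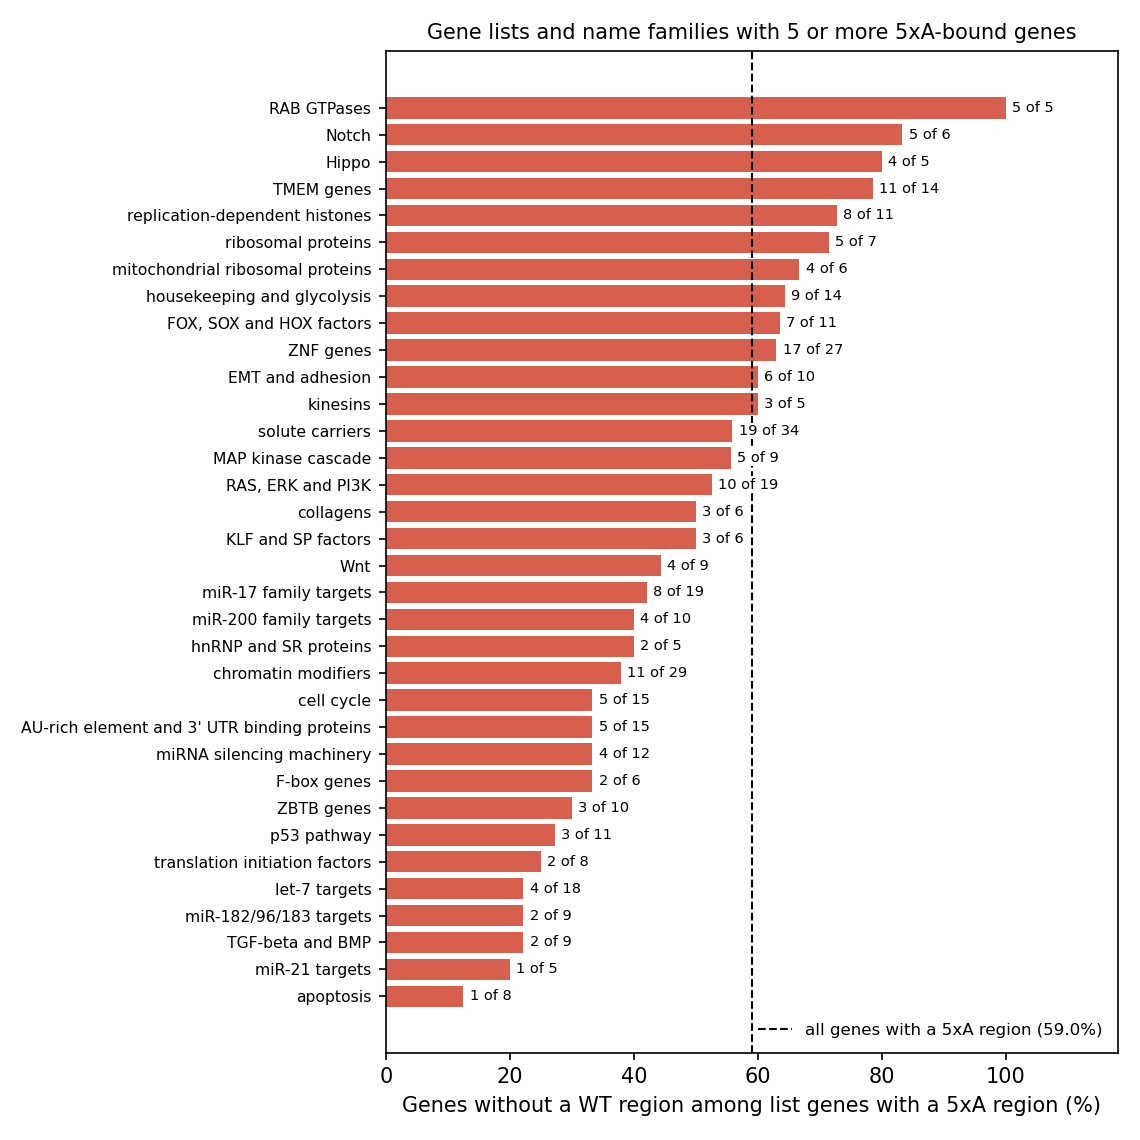
Share of WT-free genes (x axis, %) among the genes of each list or name family that held a 5xA region, for the 34 lists with at least 5 such genes, with the counts beside each bar. The dashed line marks 59.0%, the share over all genes with a 5xA region.

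Chromosome 19 held a smaller share of these regions than of the other sets. It held 96 of them (8.25%, 6.74 to 9.99), against 14.2% (11.8 to 17.0) of the 5xA-only regions in genes with WT regions and 13.8% (11.7 to 16.3) of the overlapping ones, which was not tested. By genes it was not low, with 73 of its 1451 protein-coding genes WT-free (5.03%, against 4.4% over all). Other chromosomes went the other way by regions, such as chromosome 1 (12.6%, against 8.82% and 7.97%) and X (2.75%, against 1.09% and 1.22%). Of the 1163, 987 overlapped a single annotated gene, and 176 (15.1%) overlapped more than 1, against 5.97% and 11.0% in the other sets.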

How the data were processed

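The 2 files used are region lists, 1 per genotype. Each row is 1 stranded region with a deposited score, which is 0 throughout, so no score was used. The other deposited values are positions on hg38. Per the submitters' processing notes the tools were TopHat2 and cutadapt 1.9.1. Not given in the sources used here are the region caller, its threshold, the merging rule and how inputs and AGO2_KO samples were used. The 8 input and knockout samples were not analysed here.

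Overlaps and gene assignment were computed in Python 3.11.15 and checked with bedtools 2.31.1 and on simulated data. Genes came from RefSeq GRCh38.p14 without strand or exons, and strand was taken from gene start and miRNA tables for 48.7% of 59679 genes (79.1% of protein-coding ones). Distances to a gene end run from the downstream edge of a region. Shares have Clopper-Pearson 95% intervals, which cover counting only. The 6 comparisons used two-sided Fisher's exact tests with Benjamini-Hochberg adjustment (scipy 1.17.1). Members and gene lists were chosen with earlier results of these data known. Genes were named by number of regions (up to 30), list (up to 4 each), small RNA class, width, distance to WT regions, lncRNA class and clustering. CREB3, TOB1, ODC1, KLF2 and the pseudogene, histone and opposite-strand examples were chosen after their values were seen. CREB3 held a 5xA region and no WT region, but this region overlapped a WT region given to another gene, so CREB3 is not among the 934 genes. The planned share of seed matches over all regions was not run, since sequence was used here only for miRNAs and gene start windows. Some genes and name families are not reported here.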

Additional observations from a re-analysis of the deposited data

How the results depend on the processing

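The number of regions stayed between 918 and 1178, and that of genes between 748 and 944, in 11 of the 12 alternatives run. With only 5xA regions of at least 100 bases, which removes narrow regions by construction, 440 regions in 395 genes were left. The width and protein-coding results kept their direction and their side of the threshold in every alternative run, though the order of gene classes enters the rule. The share near the downstream end was not stable. Against 5xA-only regions in genes with WT regions the odds ratio turned to 1.31 with a window of 2 kb. It also turned in genes longer than 20 kb (1.02), for regions overlapping a single gene (1.05) and for those on the known strand (1.08). With only the region of each gene nearest its end it was 0.608. Against overlapping regions it was 0.717 in all protein-coding genes and 0.69 with only the nearest region of each gene, and both passed. Keeping the nearest region favours sets with more regions per gene, and all protein-coding genes include some shorter than the window. The cause was not tested. The alternatives on gene strand, on other gene classes and on width near the gene end were chosen after seeing the data. The share of regions with a seed match was not run, since sequence was used only for miRNAs and gene start windows, nor was leaving out a replicate, since each list pools its replicates. No paired analysis was possible because the columns of the merged lists carry no replicate numbers. Without read counts, the depth that limits each list is unknown, and a longer list can reach more genes by itself.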
